A study of Mus musculus with 6 samples.

Results

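Transcripts of the FoxO transcription factors, of the autophagy machinery and of the lysosome were followed in mouse primary articular chondrocytes, the cells that make and keep joint cartilage. The 39 genes were taken by symbol from a list of FoxO factors, autophagy genes, lysosomal proteins, sestrins and Pink1. All 39 were present with values among the 17189 genes with values, and all 39 passed the filter on low counts. That filter kept 13399 genes in all. The 6 RNA-seq libraries came from wild-type cells and formed 3 groups of 2. The labels call them control, aging SNL, and aging SNL plus spesolimab, a monoclonal antibody against the receptor of IL-36. By its title the series is about that receptor in experimental osteoarthritis and aged skin. The labels expand neither SNL nor CCs, the abbreviation they use for the cells, and give no age, dose or duration. They do not say whether replicates were separate animals or cultures, so the p-values describe the spread among these libraries alone, and part of it may be technical.

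FoxO factors are held in the cytoplasm when insulin and growth factor signals are active and enter the nucleus when these signals fade, where they drive genes of stress resistance and autophagy. In autophagy, a membrane grows around cell contents, closes into an autophagosome and fuses with a lysosome, whose acid hydrolases digest the load. TFEB and TFE3 switch on lysosomal and autophagy genes together. In articular cartilage of mice, FoxO factors and autophagy are known to maintain the chondrocytes, and both are known to decline with ageing and osteoarthritis.

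Totals ranged from 16566791 to 17312833 counts per library, and the lowest count of any of the 39 genes in a library was 59. Aging SNL replicate 1 lay far from the others on principal component 1, at 67.9 against -18.8 to -6.46, and each result is therefore given for both aging SNL libraries. Chondrocyte markers, all 16 of them detected, summed to 34277 and 33738 TPM (a transcript share corrected for gene length) in control replicates 1 and 2. They summed to 5945 and 38201 TPM in aging SNL replicates 1 and 2 and to 33636 and 39306 TPM with spesolimab. Macrophage markers, 20 genes, summed to 274 and 62.6 TPM in control replicates 1 and 2, to 247 and 92 TPM in aging SNL and to 342 and 86.5 TPM with spesolimab. They were thus higher in the library numbered 1 in each group. Synovial fibroblast markers, 11 genes, summed to 6535 and 5042 TPM in control, 3785 and 4051 TPM in aging SNL, and 5884 and 4642 TPM with spesolimab, in the same replicate order. In such bulk RNA fewer cells of a type and less RNA per cell cannot be told apart.

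The first comparison, aging SNL against control, asked what the condition changed. The 39 genes lay mostly on the higher side: Cst3, Foxo3, Ctsd and Hexa stood 1.5-fold to 2.31-fold above control with both libraries of each group apart, and 34 of the 39 had a positive log2 fold change, against 52% of all tested genes. None passed in edgeR's quasi-likelihood test on the 6 libraries with the p-value adjusted over all 13399 genes, where 0% of all genes were called. At an unadjusted p under 0.05 edgeR gave 9 of the 39, all higher, against 6.49% of all genes higher and 6.15% lower. DESeq2 called 4 of the 39 higher, namely Cst3, Ctsd, Foxo3 and Hexa, and 0 lower, against 1.69% of all genes higher and 1.63% lower. Limma on TPM called 0 of them and 0 of all 12744 genes it tested, and limma with sample quality weights called 0 of them and 0 of all 13399 genes. The same 4 genes were called higher by edgeR without aging SNL replicate 1, where 1.81% of all genes were called higher and 1.61% lower. Without aging SNL replicate 2 edgeR called 15 of the 39 higher and 0 lower, against 13.4% and 12.3% of all genes. In these fits the lone aging SNL library is assumed to vary like the other groups, and the calls depended on which library was left out.

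The libraries of the groups did not overlap, with both aging SNL libraries above both controls, in 20 of the 39 genes, while 20.9% of all tested genes did so. Both aging SNL libraries lay below both controls in 2 of the 39, Sesn3 and Ulk2, against 21.1% of all genes. The median log2 fold change was 0.23 for the 39 genes and 0.01 for all tested genes. Without aging SNL replicate 1 the median of the 39 was 0.11, and without replicate 2 it was 0.28. These values are in CPM, counts scaled to library size after TMM, a scaling by the trimmed mean of ratios between libraries. On TPM the median log2 fold change of all genes was -0.22, where 19 of the 39 had a positive fold change and 31 of the 39 lay above the median of all genes. On TPM 7 of the 39 lay higher with no overlap (Atg12, Cst3, Ctsd, Ctsk, Ctsz, Foxo3 and Hexa), against 6.55% of all genes, and 9 lay lower, against 43% of all genes.

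**Figure D1:**
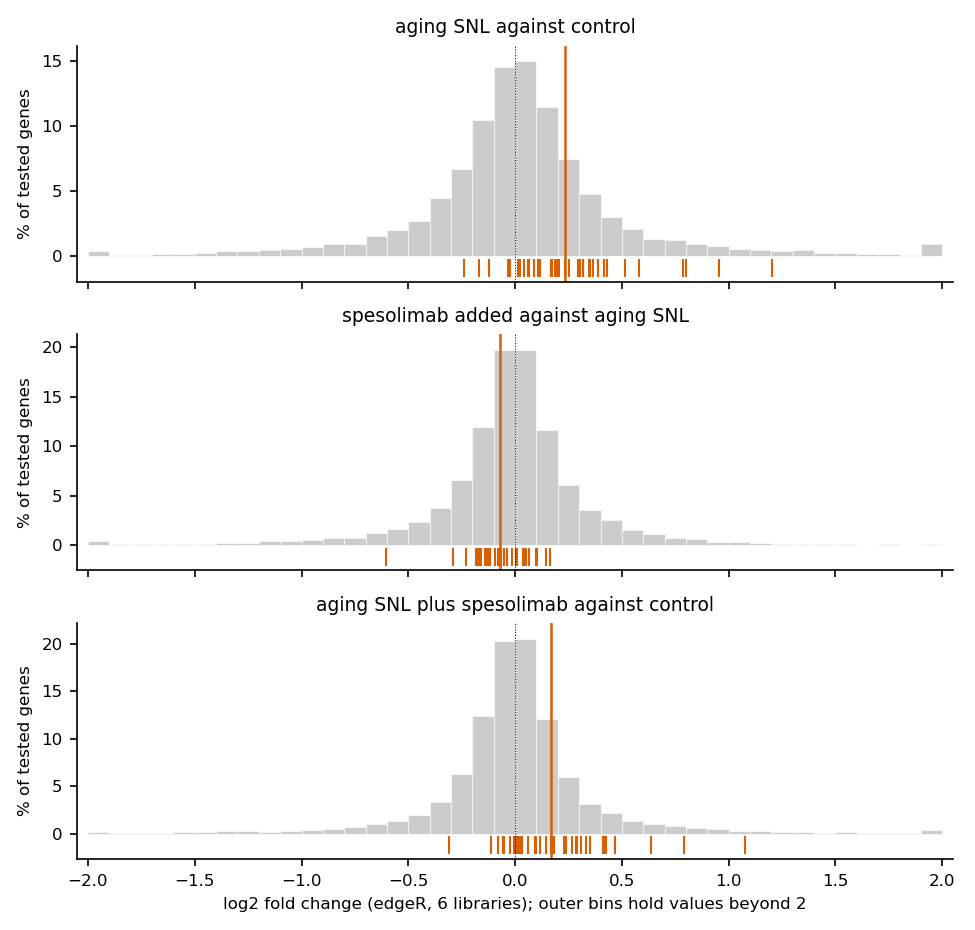
Grey bars give the percentage of the 13399 tested genes per log2 fold change bin for the 3 comparisons, orange ticks the 39 genes and the orange line their median. The median of the 39 genes sits at 0.23 in aging SNL against control, at -0.07 when spesolimab was added, and at 0.17 in aging SNL plus spesolimab against control.

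Of the FoxO factors, Foxo3 had the lowest p of the 39 genes in aging SNL against control. Foxo3, the family member best known for driving stress-resistance and autophagy genes, stood at 86 and 84.7 CPM (control), 150.3 and 147 CPM (aging SNL) and 131 and 134 CPM (spesolimab). On CPM the groups did not overlap in any pairing, with control lowest, aging SNL highest and the spesolimab libraries between them. On TPM the Foxo3 values with spesolimab, 40.2 and 41.9, lay inside the aging SNL pair of 37.5 and 45.7. Its log2 fold change in aging SNL against control was 0.80 ± 0.08 (approximate SE, 2 libraries against 2; edgeR adjusted p = 0.108). With aging SNL replicate 1 left out it was 0.78 ± 0.08 (edgeR adjusted p = 0.0115). Over all alternatives its adjusted p ranged from 1.69e-10 to 0.943.

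Foxo1, a main FoxO factor of insulin-responsive cells that also acts in chondrocytes, was at 37.7 and 39.6 CPM (control), 56.8 and 41.4 CPM (aging SNL) and 48.1 and 50.7 CPM (spesolimab). On CPM both aging SNL libraries were above both controls, but replicate 2 by little. On TPM replicate 2 lay between the controls, at 15.9 against 15.2 and 16.3. The log2 fold change of 0.35 ± 0.16 (edgeR adjusted p = 0.446) became 0.10 without aging SNL replicate 1. Foxo4, a related factor, was at 51.3 and 48.2 CPM (control), 56.5 and 50.9 CPM (aging SNL) and 53.9 and 52.4 CPM (spesolimab). Its aging SNL and control libraries overlapped, and the fold change of 0.11 ± 0.10 turned negative on TPM.

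Sestrins are stress-induced inhibitors of the growth kinase mTORC1, and Sesn3 is a known FoxO target. Sesn3 went the other way from Foxo3, at 35.8 and 42.4 CPM (control), 33.7 and 32.5 CPM (aging SNL) and 31.1 and 32 CPM (spesolimab). Both control libraries were above the other 4, with a log2 fold change of -0.24 ± 0.11 in aging SNL (edgeR adjusted p = 0.443). Sesn1 was at 44.1 and 37.1 CPM (control), 41.9 and 49.3 CPM (aging SNL) and 52.9 and 49.2 CPM (spesolimab), where only the spesolimab libraries lay apart from control. Pink1, a kinase that marks damaged mitochondria for autophagy, ranged from 90.9 to 116 CPM over the 6 libraries with overlapping groups in each comparison.

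Autophagy starts with the ULK kinase complex. Atg13, its regulatory subunit, was at 61.1 and 63.7 CPM (control), 78.9 and 70 CPM (aging SNL) and 68.3 and 73.5 CPM (spesolimab). The aging SNL and control libraries lay apart on CPM but overlapped on TPM. The log2 fold change in aging SNL was 0.25 ± 0.10 (edgeR adjusted p = 0.396). Ulk2, a kinase of the complex, was at 79 and 73.1 CPM (control), 68.7 and 66.4 CPM (aging SNL) and 76 and 73.4 CPM (spesolimab). It was lower in both aging SNL libraries, by a log2 fold change of -0.17 ± 0.09 (edgeR adjusted p = 0.47). Its relative Ulk1 was at 62.8 and 60.4 CPM (control) and 75.6 and 57.8 CPM (aging SNL), one aging SNL library above both controls and one below them.

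Of 6 genes of membrane nucleation and lipid supply, 3 had both aging SNL libraries above both controls, against 20.9% of all genes. They were Atg2a, Atg9a and Wipi2, and on TPM the aging SNL and control libraries of each overlapped. Atg2a, a lipid transfer protein that feeds the growing membrane, was at 34.1 and 34.6 CPM (control), 43 and 41.9 CPM (aging SNL) and 38.7 and 42.1 CPM (spesolimab), a log2 fold change of 0.31 ± 0.09 in aging SNL (edgeR adjusted p = 0.305). Atg9a, a lipid scramblase carried on vesicles, was at 52.9 and 61.8 CPM (control), 69.9 and 76.6 CPM (aging SNL) and 61 and 73.6 CPM (spesolimab), a log2 fold change of 0.35 ± 0.14 (edgeR adjusted p = 0.392). Wipi2, which reads the lipid signal on the new membrane, was at 83.8 and 81.6 CPM (control), 98.7 and 89.5 CPM (aging SNL) and 86 and 90.5 CPM (spesolimab). The differences of these 3 genes were small beside those of Foxo3 and Cst3. Becn1 and Atg14, subunits of the lipid kinase complex that starts the membrane, ranged from 71.3 to 83.9 CPM and from 17.6 to 19.6 CPM, and their groups overlapped. Wipi1, a relative of Wipi2, was at 101 CPM in aging SNL replicate 1 and at 61.7 CPM in replicate 2, on either side of the controls at 73.4 and 67.6 CPM.

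The conjugation genes attach ATG8 proteins to the membrane. Both aging SNL libraries lay above both controls on CPM in 2 of 6, Atg12 and Atg16l1, against 20.9% of all genes. On TPM this held for Atg12 but not for Atg16l1. Atg12, a ubiquitin-like protein joined to Atg5, was at 40.9 and 40.4 CPM (control), 56 and 48.7 CPM (aging SNL) and 47 and 45 CPM (spesolimab). As for Foxo3, its spesolimab libraries lay between the other groups on CPM with no overlap on either side. On TPM they were at 42.1 and 40.9, inside the aging SNL pair of 40.7 and 44.1. In aging SNL its log2 fold change was 0.36 ± 0.10 (edgeR adjusted p = 0.297). Atg16l1, which places the Atg12 conjugate on the membrane, was at 23.1 and 24 CPM (control), 28.6 and 25.3 CPM (aging SNL) and 23.8 and 24.2 CPM (spesolimab). Atg3, Atg4b and Atg5 (a conjugating enzyme, a protease that trims ATG8 proteins, and the partner of Atg12) ranged over 41.8 to 51.6, 40.8 to 48.2 and 24 to 26.3 CPM, and the aging SNL and control libraries of each overlapped. Atg7, the activating enzyme of both conjugation systems, was at 16.2 and 19.2 CPM (control), 25.9 and 17.6 CPM (aging SNL) and 17.2 and 18.4 CPM (spesolimab), high in aging SNL replicate 1 alone.

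The 5 ATG8 family genes encode the small proteins that coat the autophagosome, and these related genes may share reads. Map1lc3b, the gene of LC3B, the usual marker of autophagosomes, was at 179.8 and 165 CPM (control), 201 and 228 CPM (aging SNL) and 243 and 217 CPM (spesolimab). On CPM all 4 libraries of the aging SNL conditions were above both controls. The log2 fold change in aging SNL was 0.32 ± 0.12 (edgeR adjusted p = 0.384). On TPM aging SNL replicate 1 was below both controls, at 149 against 174 and 163. Gabarapl1, a GABARAP relative and known FoxO target, was at 129 and 111 CPM (control), 181 and 134 CPM (aging SNL) and 155 and 143 CPM (spesolimab), a log2 fold change of 0.39 ± 0.17 in aging SNL (edgeR adjusted p = 0.428). Gabarapl2 was at 54.5 and 50.6 CPM (control), 60.9 and 62.7 CPM (aging SNL) and 60.8 and 63.1 CPM (spesolimab), a log2 fold change of 0.23 ± 0.09 (edgeR adjusted p = 0.376) that turned to -0.01 on TPM. Gabarap and Map1lc3a ranged from 238 to 265 CPM and from 46.7 to 63 CPM, and their aging SNL and control libraries overlapped. Sqstm1, the gene of the cargo receptor p62, was nearly level, at 263 and 255 CPM (control), 271 and 269.5 CPM (aging SNL) and 252 and 247 CPM (spesolimab). In aging SNL its log2 fold change was 0.06 ± 0.09 (edgeR adjusted p = 0.809) and negative on TPM.

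Tfeb and Tfe3 encode the factors that drive lysosomal genes. Tfeb was at 9.37 and 11.2 CPM (control), 14.7 and 12.7 CPM (aging SNL) and 11 and 14 CPM (spesolimab), a log2 fold change of 0.41 ± 0.19 in aging SNL (edgeR adjusted p = 0.435). On CPM its aging SNL libraries were both above the controls, but on TPM they overlapped with control. The spesolimab libraries overlapped with both other groups. Tfe3 was at 39.5 and 41.9 CPM (control), 53.3 and 38.4 CPM (aging SNL) and 38.1 and 43.1 CPM (spesolimab), high in aging SNL replicate 1 alone.

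Of the lysosomal membrane proteins, Lamp1 was at 572 and 570.3 CPM (control), 642 and 782 CPM (aging SNL) and 703 and 669 CPM (spesolimab). On CPM its aging SNL libraries were both above control, here with replicate 2 the higher. The log2 fold change was 0.32 ± 0.14 (edgeR adjusted p = 0.428). On TPM aging SNL replicate 1 was below both controls, at 528 against 616 and 627. Lamp2, needed for fusion of autophagosomes with lysosomes, was at 702 and 648 CPM (control), 668 and 724 CPM (aging SNL) and 819 and 675 CPM (spesolimab), with overlapping groups in each comparison.

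All 7 hydrolase genes had positive fold changes in aging SNL, against 52% of all genes. Both aging SNL libraries lay above both controls in 5 of them, against 20.9% of all genes. On TPM the libraries of Ctsb, 1 of these 5, overlapped, at 1238 and 980 TPM (control) and 1462 and 1217 TPM (aging SNL). Ctsd, an aspartic protease and the most abundant of the 7, was at 1244 and 1164 CPM (control), 1856 and 2299.8 CPM (aging SNL) and 2071 and 2093 CPM (spesolimab). All 4 aging SNL libraries, with and without the antibody, were above both controls. The log2 fold change in aging SNL was 0.79 ± 0.17 (edgeR adjusted p = 0.211). With single libraries left out it ranged from 0.62, without aging SNL replicate 2, to 0.93, without aging SNL replicate 1. Hexa, a subunit of the enzyme that degrades gangliosides, was at 216 and 203 CPM (control), 324 and 302 CPM (aging SNL) and 271 and 287 CPM (spesolimab). On CPM the spesolimab libraries again lay between the other groups. On TPM they were at 311 and 335, inside the aging SNL pair of 302 and 352. The log2 fold change of Hexa in aging SNL was 0.58 ± 0.11 (edgeR adjusted p = 0.174). With single libraries left out it ranged from 0.53, without aging SNL replicate 1, to 0.63, without aging SNL replicate 2.

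The other 5 cathepsins were each higher in the library numbered 1 than in that numbered 2 in all 3 groups. That order was seen in 18.7% of all tested genes. It was found in 14 of 20 macrophage, 8 of 11 synovial fibroblast, 4 of 8 osteoclast and 0 of 16 chondrocyte markers. Ctsb, a cysteine protease, was at 1229 and 945 CPM (control), 1856 and 1254 CPM (aging SNL) and 1695 and 1309 CPM (spesolimab). In aging SNL its log2 fold change was 0.52 ± 0.27 (edgeR adjusted p = 0.473). With aging SNL replicate 1 left out it was 0.21. Ctsl, a cysteine protease known to be secreted in inflamed joints, was at 688 and 499 CPM (control), 1701 and 598 CPM (aging SNL) and 905 and 608 CPM (spesolimab). Its value rested on aging SNL replicate 1: the log2 fold change was 0.95 ± 0.52 (edgeR adjusted p = 0.49), 1.52 without replicate 2 and 0.01 without replicate 1. Ctsk, the collagen-degrading cathepsin best known from osteoclasts, was at 118 and 111 CPM (control), 179 and 130.0 CPM (aging SNL) and 159 and 122 CPM (spesolimab). In aging SNL its log2 fold change was 0.43 ± 0.20 (edgeR adjusted p = 0.448). Ctsz was at 177 and 169 CPM (control), 254 and 187 CPM (aging SNL) and 194 and 181 CPM (spesolimab), with a log2 fold change of 0.35 ± 0.16 (edgeR adjusted p = 0.446). For Ctsk and Ctsz, too, the value was smaller with replicate 1 left out, at 0.18 and 0.11.

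Ctss, a cathepsin typical of macrophages and other antigen-presenting cells, was at 11.7 and 3.31 CPM (control), 14.8 and 4.82 CPM (aging SNL) and 15.7 and 4.53 CPM (spesolimab). Its spread followed the replicate number and not the group. Lyz2, the macrophage lysozyme, had the same order, at 70.6 and 13.6 CPM (control), 78.3 and 22.8 CPM (aging SNL) and 97.4 and 19.8 CPM (spesolimab). The part of RNA from macrophages or other cells in the cathepsin values was not tested. Osteoclast markers, 8 genes, summed to 10.2 and 6.73 TPM (control), 18.7 and 7.74 TPM (aging SNL) and 11.5 and 6.93 TPM (spesolimab). Ctsk alone was at 182 to 239.8 TPM, and the part of osteoclast RNA in it was not tested.

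Cst3, the gene of cystatin C, a secreted inhibitor of cysteine cathepsins, had the largest fold change of the 39 genes in aging SNL. It was at 445 and 351 CPM (control), 928 and 907 CPM (aging SNL) and 839 and 837 CPM (spesolimab). All 4 libraries of the aging SNL conditions were far above both controls, with the spesolimab libraries just below the aging SNL libraries on CPM. On TPM the spesolimab libraries, at 3105 and 3102, lay inside the aging SNL pair of 2740 and 3345. The log2 fold change in aging SNL was 1.21 ± 0.16 (edgeR adjusted p = 0.155). With aging SNL replicate 1 left out it was 1.19 ± 0.15 (edgeR adjusted p = 0.0183). Over all alternatives its adjusted p ranged from 1.13e-09 to 0.943.

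**Figure D2:**
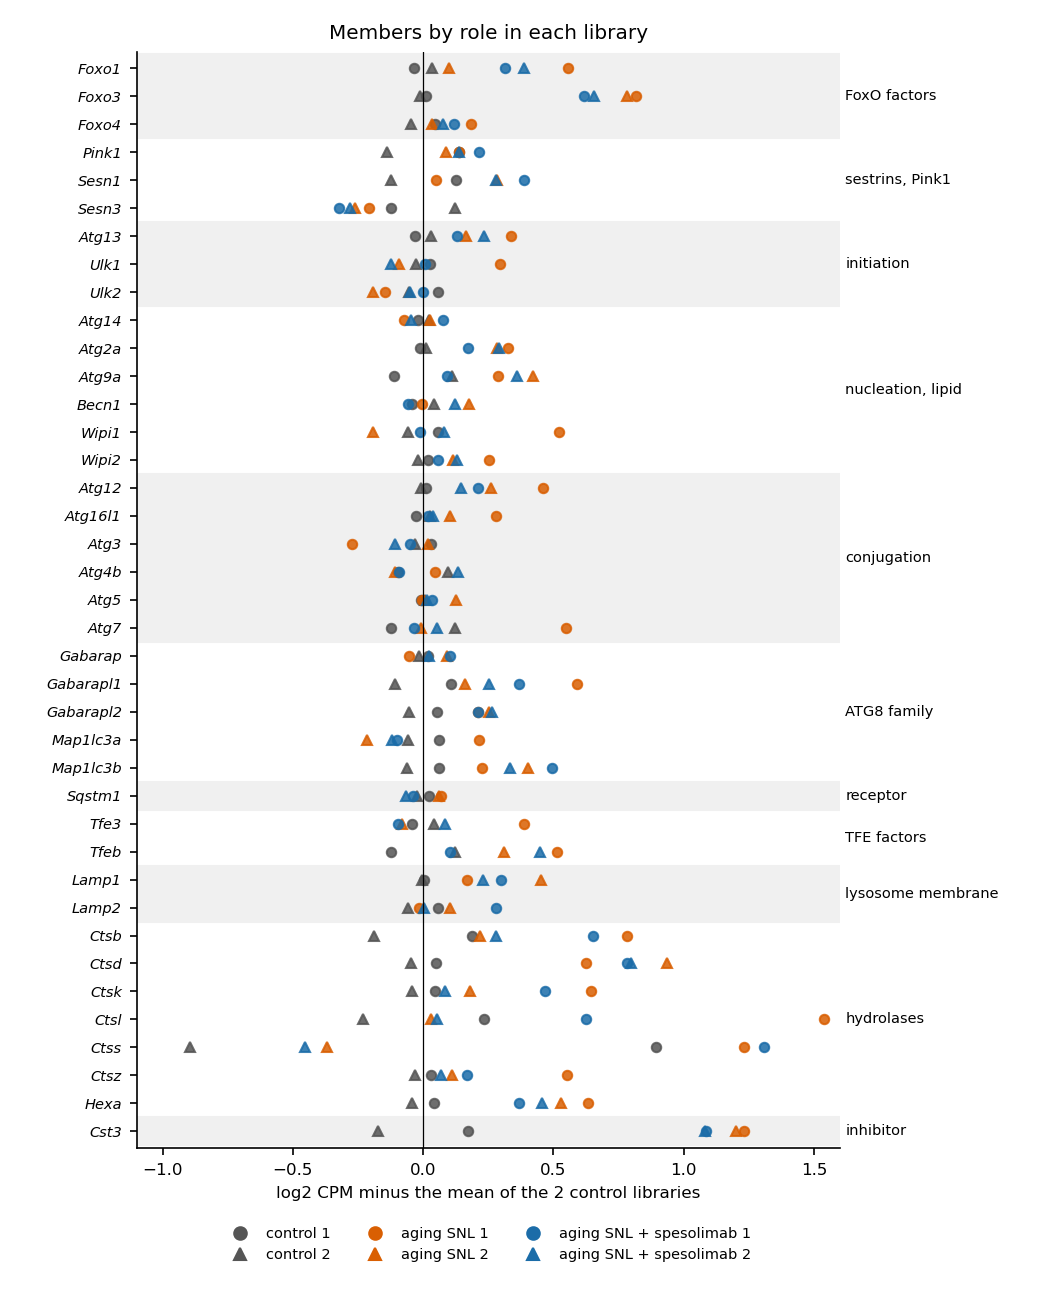
Each row is one of the 39 genes, grouped by role, and each symbol a library (circles replicate 1, triangles replicate 2), placed at its log2 CPM minus the mean of the 2 control libraries. Cst3, Foxo3, Ctsd and Hexa have all 4 aging SNL and spesolimab libraries right of both controls, while Ctsl is far right in aging SNL replicate 1 alone and Ctss is split by replicate number.

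**Figure D3:**
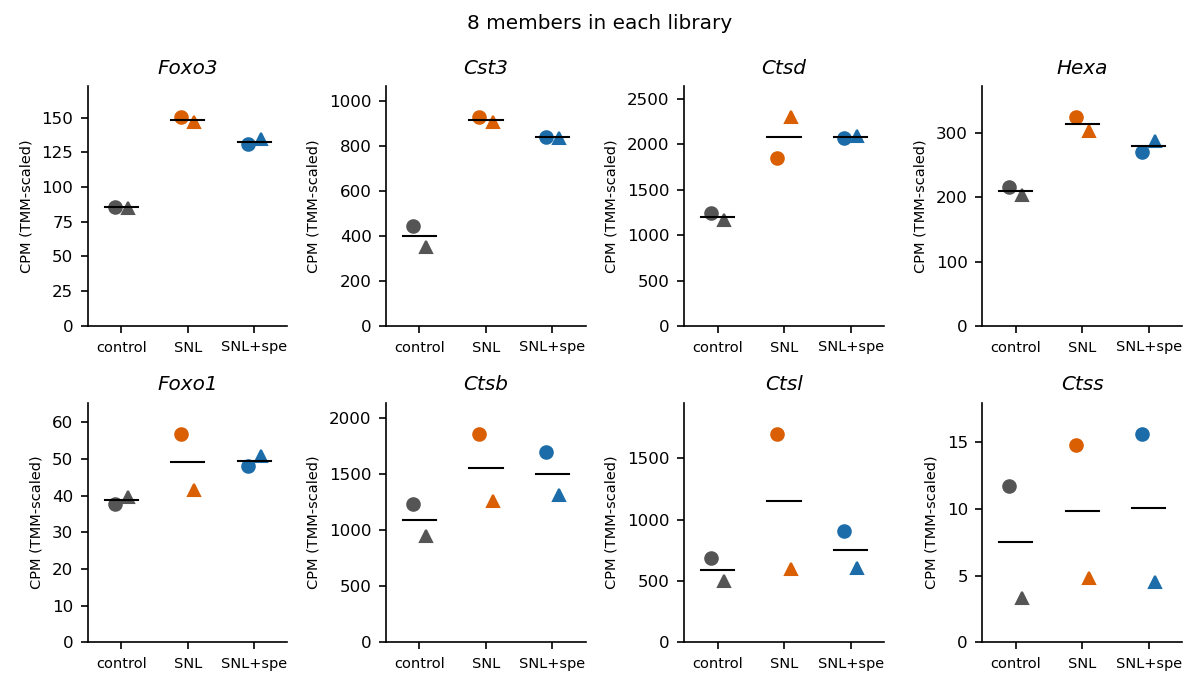
CPM of 8 of the genes in each library, on axes that start at 0, with circles for replicate 1, triangles for replicate 2 and bars for the mean of 2 libraries. For Foxo3 the replicates of a group lie close together, at 86 and 84.7 CPM (control) against 150.3 and 147 CPM (aging SNL). For Ctsl in aging SNL they lie apart, at 1701 and 598 CPM.

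Promoters of 33 of the 39 genes were found in the RefSeq table of build GRCm38.p6, and the 250 bases before the start were searched on both strands for 2 short motifs. The core of the motif bound by TFEB and TFE3, TCACGTG or CACGTGA, was present in 4 of the 33 genes (12.1%), Atg3, Atg7, Ctsd and Lamp1, and in 3.58% of the 27025 genes of the table. For Atg7, unlike the other 3, the first bases after this start were not found in a transcript of the gene. The same was so for Atg5, Atg13, Ctsk, Lamp2 and Ulk2, which hold neither motif in this window. The core motif of FoxO factors, GTAAACA or TGTTTAC, was present in 0 of the 33 and in 3.54% of all genes. The motifs of the pair do not overlap each other, but TCACGTGA holds both spellings of the first. A match is a description of these letters and not a bound site, and no match says only that the letters are not in this window. Promoters are shown for Ctsd, Lamp1 and Atg3, which hold the TFEB and TFE3 core more than once, and for Foxo3, Cst3 and Hexa, which like Ctsd were called in aging SNL against control by DESeq2 and hold neither motif. They lie at chr7:142387828-142388077 (Ctsd, minus strand), chr8:13158911-13159160 (Lamp1, plus), chr16:45158579-45158828 (Atg3, plus), chr10:42276696-42276945 (Foxo3, minus), chr2:148875513-148875762 (Cst3, minus) and chr9:59539290-59539539 (Hexa, plus) of GRCm38.p6. Each runs 5′ to 3′ on the strand of its gene and ends at the base before the start, with the motif in capitals.
Ctsd: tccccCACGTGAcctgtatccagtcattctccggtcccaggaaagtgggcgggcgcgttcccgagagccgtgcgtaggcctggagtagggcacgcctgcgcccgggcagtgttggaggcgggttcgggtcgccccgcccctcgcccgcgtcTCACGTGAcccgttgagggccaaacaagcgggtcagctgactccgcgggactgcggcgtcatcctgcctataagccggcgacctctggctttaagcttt
Lamp1: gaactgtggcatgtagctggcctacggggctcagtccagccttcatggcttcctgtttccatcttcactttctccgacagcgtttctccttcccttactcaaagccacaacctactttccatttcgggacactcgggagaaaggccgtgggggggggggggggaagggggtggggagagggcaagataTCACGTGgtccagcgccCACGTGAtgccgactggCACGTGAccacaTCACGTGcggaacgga
Atg3: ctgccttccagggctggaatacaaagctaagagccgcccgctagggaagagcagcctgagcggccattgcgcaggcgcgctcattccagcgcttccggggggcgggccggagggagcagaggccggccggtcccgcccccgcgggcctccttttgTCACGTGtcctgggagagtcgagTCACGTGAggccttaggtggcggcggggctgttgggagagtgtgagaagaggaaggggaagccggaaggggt
Foxo3: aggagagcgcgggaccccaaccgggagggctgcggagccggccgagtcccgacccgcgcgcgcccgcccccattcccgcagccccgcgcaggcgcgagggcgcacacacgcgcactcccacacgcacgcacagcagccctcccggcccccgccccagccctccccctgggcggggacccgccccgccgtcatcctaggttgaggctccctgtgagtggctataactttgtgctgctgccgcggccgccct
Cst3: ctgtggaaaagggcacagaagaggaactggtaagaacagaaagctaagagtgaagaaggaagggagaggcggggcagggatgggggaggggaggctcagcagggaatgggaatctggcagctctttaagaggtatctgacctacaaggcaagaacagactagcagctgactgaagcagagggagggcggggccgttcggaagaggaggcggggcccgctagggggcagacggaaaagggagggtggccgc
Hexa: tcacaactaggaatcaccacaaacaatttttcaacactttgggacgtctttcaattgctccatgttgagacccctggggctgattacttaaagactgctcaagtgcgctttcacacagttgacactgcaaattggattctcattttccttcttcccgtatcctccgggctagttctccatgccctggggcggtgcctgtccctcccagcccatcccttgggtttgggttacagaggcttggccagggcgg

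In Lamp1 the 4 matches began 62, 45, 28 and 16 bases before the start. In Ctsd they began 245, 99 and 98 bases before it, the last pair within the letters TCACGTGA, and in Atg3 95, 72 and 71 bases before it. Of these 3 genes Ctsd and Lamp1 stood higher on CPM in both aging SNL libraries, and on TPM only Ctsd did. Atg3 was at 51.6 and 49.4 CPM (control) and 41.8 and 51.1 CPM (aging SNL).

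Levels of the genes relative to each other, in TPM, spanned a wide range. Cst3 was highest at a mean of 2568 TPM over the 6 libraries, followed by Ctsd at 2129, Ctsb at 1304 and Ctsl at 1121 TPM. In control alone Cst3 and Ctsd were close, at 1725 and 1392 TPM for Cst3 and 1589 and 1520.2 TPM for Ctsd, and Ctsd was the higher in replicate 2. The per-library ranges of neighbours in this order overlapped, for Cst3 at 1392 to 3345 TPM and for Ctsd at 1520.2 to 2800.4 TPM. In control the FoxO genes were ordered with Foxo4 at 38.3 and 36.7 TPM, Foxo3 at 28.1 and 28.2 TPM and Foxo1 at 15.2 and 16.3 TPM. In both aging SNL and both spesolimab libraries Foxo3 was the highest of the 3, at 37.5 to 45.7 TPM against 32.3 to 37.8 TPM for Foxo4. Of the ATG8 family Gabarap was highest in each library, at 442 to 611 TPM, and the other 4 genes lay between 119 and 221 TPM. The lowest members were Atg7, Tfeb, Atg14 and Atg2a, with means of 11.1 to 13.9 TPM.

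**Figure D4:**
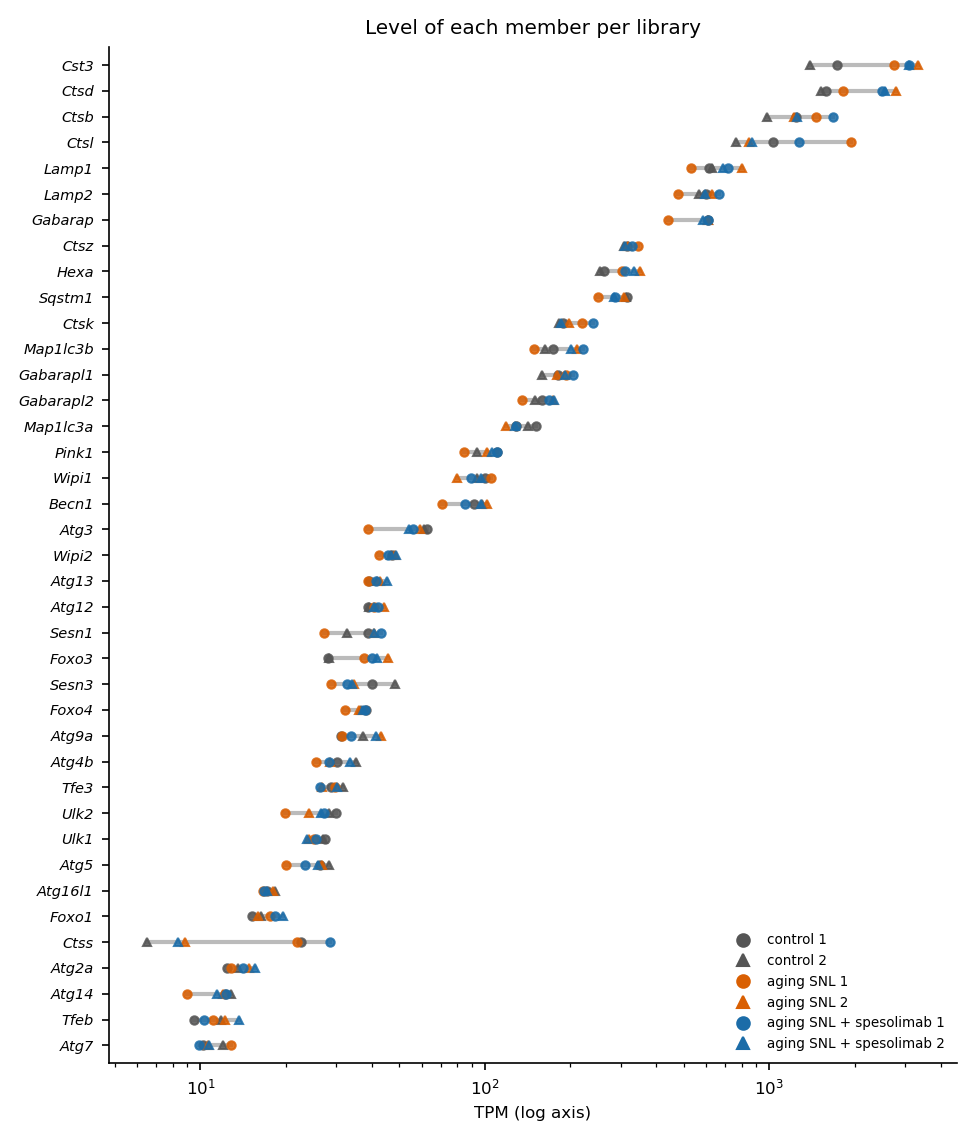
TPM of each of the 39 genes in each library on a log axis, ordered by the mean, with a grey line from the lowest to the highest library. Cst3 and Ctsd have the highest means, 2568 and 2129 TPM, and Ctss has the widest relative range, from 6.49 to 28.4 TPM.

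The second comparison, aging SNL with spesolimab against aging SNL alone, asked what the antibody changed. None of the 39 genes was called by edgeR (lowest adjusted p = 0.956), DESeq2 or limma on TPM, and 0 of the 39 had an unadjusted edgeR p under 0.05, against 0% of all genes called by edgeR, 1.44% higher and 1.49% lower at that unadjusted p, and 3 genes called by DESeq2 (0.0224% of all genes higher). A positive fold change was found for 13 of the 39, against 49% of all genes. The median log2 fold change of the 39 was -0.07, against -0.01 for all genes, and 0.01 without aging SNL replicate 1. Both spesolimab libraries lay below both aging SNL libraries in 7 of the 39, Atg12, Atg16l1, Cst3, Foxo3, Hexa, Sesn3 and Sqstm1, against 13.4% of all genes. They lay above in 1, Ulk2, against 13.5% of all genes. On TPM 0 of the 39 lay lower and 4 lay higher, against 5.04% and 22.9% of all genes. The log2 fold changes of these genes were small: -0.16 ± 0.08 for Foxo3, -0.13 ± 0.15 for Cst3, -0.17 ± 0.10 for Hexa, -0.19 ± 0.10 for Atg12, -0.17 ± 0.11 for Atg16l1, -0.12 ± 0.09 for Sqstm1, -0.07 ± 0.11 for Sesn3 and 0.14 ± 0.09 for Ulk2 (each with edgeR adjusted p = 0.956, or 0.964 for Sesn3). Without aging SNL replicate 2 edgeR called 6 of the 39 lower (Atg7, Ctsl, Ctsz, Tfe3, Ulk1 and Wipi1), and 0 higher, against 10.9% of all genes called lower and 9.59% higher. Each of these 6 was highest, of all 6 libraries, in aging SNL replicate 1. Without aging SNL replicate 1 edgeR called 0 of the 39 and 0% of all genes. The fold change of Ctsl was -0.60 ± 0.52 with 6 libraries, -1.17 without replicate 2 and 0.34 without replicate 1, and so changed its sign.

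The third comparison set aging SNL with spesolimab against control, and shares its libraries with the first comparisons. None of the 39 was called by edgeR on 6 libraries, with 0% of all genes called. At an unadjusted p under 0.05 edgeR gave 8 of the 39, 7 of them higher (3.11% of all genes) and Sesn3 lower (3.06% of all genes). DESeq2 called Cst3, Ctsd and Foxo3 higher, against 0.493% of all genes higher and 0.702% lower. EdgeR on the 4 libraries compared called the same 3 genes higher, against 1.51% of all genes higher and 1.37% lower. Limma with sample quality weights also called these 3, with fewer genes called in all than that edgeR fit. Foxo3 was 0.64 ± 0.08 higher on the log2 scale in the 6 libraries (edgeR adjusted p = 0.275) and 0.64 ± 0.07 in the 4 (edgeR adjusted p = 0.0117). Cst3 was 1.07 ± 0.15 higher in the 6 libraries (edgeR adjusted p = 0.275) and Ctsd 0.79 ± 0.17 (edgeR adjusted p = 0.376), with adjusted p = 0.0156 and 0.0172 for them in the 4 libraries. Hexa was 0.41 ± 0.10 higher in the 6 libraries (edgeR adjusted p = 0.515) and missed the threshold in the 4 (edgeR adjusted p = 0.0568).

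Both spesolimab libraries lay above both controls in 20 of the 39 genes, against 23.8% of all genes, and below them in 4 (Atg3, Map1lc3a, Sesn3 and Sqstm1), against 24.6%. On TPM these counts were 13, against 12.7% of all genes, and 7, against 40.7%. Fold changes were positive for 32 of the 39, against 50.1% of all genes. The median log2 fold change was 0.17, against 0.00 for all genes. Map1lc3b was 0.42 ± 0.12 higher (edgeR adjusted p = 0.601), Foxo1 0.35 ± 0.16 (edgeR adjusted p = 0.893) and Sesn1 0.33 ± 0.13 (edgeR adjusted p = 0.829). Gabarapl2 was 0.24 ± 0.09 higher (edgeR adjusted p = 0.76) and Atg2a 0.23 ± 0.09 (edgeR adjusted p = 0.787). The log2 fold change of Sesn3 was -0.31 ± 0.11 (edgeR adjusted p = 0.756).

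Further genes of the same pathways were read from 5 lists. None of their genes passed in edgeR on 6 libraries in aging SNL against control, and other tools were not read for these lists. Of 42 other lysosomal genes, 39 had positive fold changes, with both aging SNL libraries above both controls in 26 and below them in 1, against 20.9% and 21.1% of all genes, and a median log2 fold change of 0.28. Among all tested genes 52% had positive fold changes. An unadjusted p under 0.05 was found for 14 of the 42, against 6.49% of all genes higher and 6.15% lower. The genes with the lowest p were Tpp1, a lysosomal peptidase, at 148 and 137 CPM (control) and 256 and 206 CPM (aging SNL), and Laptm4b, a lysosomal membrane protein, at 26.2 and 24.5 against 42.7 and 35.3 CPM. The lowest p among those with negative fold changes went to Igf2r, a receptor that sorts hydrolases to lysosomes, at 862 and 837 against 788 and 824 CPM, and Ctsc, a cathepsin of leukocytes, at 7.72 and 4.43 against 6.65 and 3.07 CPM. The library numbered 1 was the higher in each group for 24 of these 42 genes. Of 16 subunits and partners of the proton pump that acidifies lysosomes, 15 had positive fold changes, with libraries apart and higher in 13 and lower in 0 (20.9% and 21.1% of all genes), a median of 0.21 and 5 at an unadjusted p under 0.05. Atp6v1e1 was at 69.2 and 62.1 CPM (control) and 94.2 and 88.3 CPM (aging SNL), and Atp6ap2 at 68 and 66.1 against 94.2 and 81.1 CPM. Atp6v1h, the only 1 of the 16 with a negative fold change, was at 65 and 68.2 against 62.4 and 69.2 CPM.

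Of 36 other autophagy genes 27 had positive fold changes, with libraries apart and higher in 16 and lower in 4, a median of 0.09 and 5 at an unadjusted p under 0.05. For all genes the shares were 52% positive, 20.9% apart and higher, 21.1% apart and lower, and 6.49% higher and 6.15% lower at that p, and these shares also apply to the lists that follow. Bnip3, a mitophagy receptor induced by hypoxia, was at 233 and 265 CPM (control), 342 and 384 CPM (aging SNL) and 267 and 295 CPM (spesolimab). Atg101, a partner of Atg13, was at 14.6 and 13.7 CPM (control), 21.8 and 18.5 CPM (aging SNL) and 16.5 and 16.6 CPM (spesolimab). On the lower side were Tbc1d5, a trafficking regulator, at 38.5 and 38.5 CPM (control) and 26.3 and 34.4 CPM (aging SNL), and Rb1cc1, the scaffold of the ULK complex, at 108 and 101 against 98.1 and 84.5 CPM. Of 25 genes of mTORC1 and AMPK signalling 16 had positive fold changes, with libraries apart and higher in 11 and lower in 2, a median of 0.10 and 3 at an unadjusted p under 0.05. Ddit4, a stress-induced inhibitor of mTORC1, was at 28.9 and 36.6 CPM (control), 51.3 and 53.5 CPM (aging SNL) and 29.7 and 33 CPM (spesolimab). Fnip2, a partner of folliculin, was at 27.8 and 26.6 CPM (control), 48.6 and 35.8 CPM (aging SNL) and 36.9 and 33.8 CPM (spesolimab). Rragb, a GTPase of nutrient sensing, was at 4.46 and 5.94 against 2.36 and 3.98 CPM, and Lamtor5, of the lysosomal scaffold of mTORC1, at 28.8 and 28.8 against 28.3 and 24.9 CPM.

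Of 35 regulators and known targets of FoxO factors 34 were tested. Their fold changes were positive in 19 and negative in 15, with libraries apart and higher in 11 and lower in 6, a median of 0.06 and 7 at an unadjusted p under 0.05. The shares of all genes were 52% positive, 20.9% and 21.1% apart, and 6.49% and 6.15% at that p. Pdk4, a kinase that limits glucose oxidation and a known FoxO target, was at 6.63 and 5.89 CPM (control), 34.9 and 20.2 CPM (aging SNL) and 30.1 and 26.4 CPM (spesolimab). Klf15, a metabolic transcription factor, was at 26.5 and 24.5 CPM (control), 64.4 and 52.1 CPM (aging SNL) and 59.1 and 58.7 CPM (spesolimab). Both stood well above both controls in each of the 4 aging SNL libraries, with and without the antibody. Cited2, a transcriptional regulator, was at 222 and 221 CPM (control) and 159.6 and 125 CPM (aging SNL), and Txnip, an inhibitor of thioredoxin and of glucose uptake, at 1256 and 990.4 against 725 and 473 CPM. The list as a whole thus held genes on either side of control.

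When spesolimab was added to aging SNL, libraries lay apart and higher in 2 and lower in 10 of the 42 other lysosomal genes, against 13.5% and 13.4% of all genes. For the 16 proton pump genes these counts were 0 and 8, for the 36 autophagy genes 1 and 9, for the 25 mTORC1 and AMPK genes 4 and 4, and for the 34 FoxO regulators and targets 5 and 6. Medians of these lists lay between -0.12, in the proton pump genes, and -0.01, in the FoxO list. Against control, the spesolimab libraries lay higher in 29 and lower in 1 of the 42 lysosomal genes, against 23.8% and 24.6% of all genes, with a median log2 fold change of 0.23.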

How the data were processed

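RNA-seq of poly(A) RNA from 6 libraries was analysed from the authors' gene table. The authors' read columns hold expected counts, not normalized, per the file headers; 12.3% of the values were not whole. TPM columns were made by the authors, per the file headers. Per the submitters' processing notes, the build was GRCm39 and the tools were RSEM 1.3.1, Bowtie2 2.3.4.3 and DESeq2 1.4.5. How reads were assigned by strand, and the annotation, are not given in the sources used here. Reads of related or overlapping genes may therefore be split between them. The table's 15 further columns of values (9 group averages and 6 of FPKM) were not used.

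The rounded counts went into edgeR 4.0.16 (R 4.3.3; filterByExpr, minimum count 10 and minimum total 15; TMM; quasi-likelihood test on 6 libraries, 1 mean per group, 3 residual degrees of freedom), with Benjamini-Hochberg adjustment over 13399 genes and a threshold of 0.05. Standard errors are approximate: each is the fold change on the log2 scale over the root of its F value. The script was tested on simulated data. Alternatives were DESeq2 1.42.0, RLE scaling, no filter, limma 3.58.1 on log2(TPM + 1) or log2(TPM + 0.1), voom with sample quality weights, the 4 libraries compared, a replicate block and each library left out. Replicate libraries differed by more than counting noise (chi-square per degree of freedom 13.6 in control, 239 in aging SNL and 17.7 with spesolimab). Intervals of counting error were not given: at 5 CPM that error was 11% at the lowest depth. It was larger for values under 5 CPM, such as those of Tyrobp, with 5 to 41 counts per library.

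The 39 genes and all lists were chosen with earlier results of these data known. Values were given in every library for FoxO genes, Cst3, Sqstm1, genes of each role whose groups lay apart in the first or second comparison and the gene of lowest p of each role in these comparisons, and, of each further list, for up to 2 genes of lowest p per direction. A few other genes, such as Ulk1, Wipi1, Lyz2 and those of the lists in the spesolimab libraries, were added after their values were seen.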

Additional observations from a re-analysis of the deposited data

How the results depend on the processing

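With edgeR on 6 libraries 0 genes were called in each comparison, and the count depended on the tool and on single libraries. In aging SNL against control DESeq2 called 445 genes and 4 of the 39. With single libraries left out edgeR called 0 to 3525 genes and 0 to 15 of the 39. The highest counts came without aging SNL replicate 2, and without aging SNL replicate 1 there were 467 genes and 4 of the 39. In spesolimab added against aging SNL DESeq2 called 3 genes and 0 of the 39, and leaving out single libraries gave 0 to 2810 genes and 0 to 6 of the 39. In aging SNL plus spesolimab against control DESeq2 called 160 genes, edgeR on the 4 libraries 382 and limma voom with quality weights 93, each with 3 of the 39. Leaving out single libraries gave 0 to 385 genes and 0 to 3 of the 39 there, with 0 wherever a control or spesolimab library was left out. The cause of these differences was not tested.

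The median log2 fold change of the 39 genes moved to -0.0143 on log2(TPM + 1), with and without the filter on TPM, and to -0.0145 on log2(TPM + 0.1) in aging SNL against control. It moved to 0.0838, 0.0838 and 0.0862 in spesolimab added against aging SNL, and to 0.0853, 0.0853 and 0.0872 in aging SNL plus spesolimab against control. Leaving out single libraries gave medians of 0.112 to 0.281, -0.143 to 0.00682, and 0.121 to 0.171 in the 3 comparisons. On log2(TPM + 1) the median of all genes was -0.22, 0.14 and -0.08, against 0.01, -0.01 and 0.00 with edgeR. With TPM in place of CPM the genes apart and higher numbered 7, 4 and 13, and those apart and lower 9, 0 and 7. With RLE factors 2 genes lay apart and higher when spesolimab was added. With a library left out, a group of 1 overlaps less easily by construction. Of the 39 genes, 23 to 29, 3 to 10 and 25 to 27 then lay higher. Those lying lower numbered 3 to 7, 11 to 23 and 5 to 6. Shares of all genes are not given for these fits, so these counts cannot be read as more or fewer than among all genes. Signs on log2(TPM + 1) were read here for genes whose fold changes are given above. In aging SNL against control they turned for Foxo4 (-0.13), Gabarapl2 (-0.01) and Sqstm1 (-0.18). When spesolimab was added they turned for Sesn3 (0.08), Sqstm1 (0.038) and Cst3 (0.036). Of all 39 genes, 19 were positive on log2(TPM + 1) in aging SNL against control, against 34 with edgeR. When spesolimab was added 30 of the 39 were positive on log2(TPM + 1), against 13 with edgeR. Ctsl ranged from -1.17 to 0.34 in that comparison with single libraries left out.

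The replicate numbers are shared across groups, but the labels do not say that they pair the libraries. Differences between replicates 1 and 2 correlated across 13399 genes at 0.246 (control with aging SNL), 0.419 (control with spesolimab) and 0.286 (aging SNL with spesolimab). With the replicate number as a block, 0 genes were called in each comparison, with lowest adjusted p of 0.167, 0.874 and 0.301 in edgeR, and 12, 0 and 9 of the 39 had an unadjusted p under 0.05, as had 1793, 395 and 943 of all 13399 genes. With 2 libraries per group, an exact permutation test of a single gene cannot go below p = 0.333. Each of the 39 genes had at least 59 counts in each library, and calls at another depth were not tested.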

Other observations

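The library numbered 1 was lower than that numbered 2 in all 3 groups for 12 of 16 chondrocyte markers and higher for 0 of them, while it was higher for 14 of 20 macrophage markers and 8 of 11 synovial fibroblast markers. Across all tested genes each order was found in 18.7%. The summed TPM did not always follow these counts of genes: that of chondrocyte markers was higher in control replicate 1 than in replicate 2 (34277 against 33738), and that of synovial fibroblast markers was lower in aging SNL replicate 1 (3785 against 4051). Among the 39 FoxO, autophagy and lysosome genes it was higher in all groups for 14 and lower for 2. These 14 included Ctsb, Ctsk, Ctsl, Ctss, Ctsz, Cst3 and Sqstm1, but not Foxo3, Ctsd or Hexa. Tyrobp, an adaptor of myeloid cells, was at 2.34 and 0.392 CPM (control), 1.43 and 0.301 CPM (aging SNL) and 1.87 and 0.471 CPM (spesolimab). Cd68, a lysosomal glycoprotein used as a macrophage marker, was at 7.54 and 2.41 CPM, 17.4 and 3.25 CPM, and 9.4 and 2.77 CPM in the same order. The labels do not say what the replicate number stands for.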
